A study of Mus musculus with 6 samples.

Results

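The KLF, EGR and NR4A early-response genes examined here were the 10 genes Klf2, Klf4, Klf6, Klf10, Egr1, Egr3, Nr4a1, Nr4a2, Ier2 and Zfp36. They were chosen by their names from the 27198 genes of the deposited expression table, with earlier results of these data known. Each name matched 1 row. The table holds read counts of RNA from hematopoietic stem cells (HSCs), from which every blood lineage is renewed in the bone marrow. HSCs were sorted as Sca1+ c-Kit+ cells without lineage markers, CD34 or CD135 (Flk2) from wild-type male C57BL/6 mice 8 to 10 weeks old that were not irradiated. Control (Ctrl) mice received solvent, and the long-term group (l-FA) received ferulic acid (FA), a plant antioxidant, intraperitoneally at 50 mg/kg once daily for 30 days. There were 3 Ctrl and 3 l-FA libraries. Neither the labels nor the methods say how many mice stand behind a library, so p-values measure the spread between these libraries, which may be technical.

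Early-response genes are switched on within minutes when a growth factor, cytokine or mechanical signal reaches a cell, without new protein synthesis, through serum response factor (SRF) with its ternary complex partners and through CREB. Most of them encode transcription factors, and their mRNAs are short-lived. The Krüppel-like factors (KLFs) bind GC-rich DNA and CACCC boxes with zinc fingers, the EGR factors bind a G-rich site with zinc fingers of the same class, and the NR4A proteins are orphan nuclear receptors. In HSCs, Egr1 and NR4A factors are known for holding cells in quiescence. Zfp36 encodes tristetraprolin (TTP), which binds AU-rich elements in mRNA and hastens its decay.

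All 10 early-response genes differed between the groups, 9 of them higher in the l-FA libraries and 1, Klf2, lower (edgeR's quasi-likelihood test, adjusted p under 0.05 over 16520 genes). The largest well-counted rises were in Egr1 (2.17-fold) and Zfp36 (2.02-fold), followed by Nr4a1 (1.83-fold), while Ier2, Klf6 and Klf10 rose by 1.21-fold to 1.42-fold. Such calls were common in these libraries, because 25.5% of all genes tested were called higher and 25.0% lower. For each of the 10 genes the 3 l-FA libraries lay on 1 side of the 3 Ctrl libraries, which was so for 60.3% of all genes tested. Egr3 passed the low-count filter only through its l-FA counts and so had to differ. Of the 9 other genes 8 were higher and 1 lower, with a median log2 fold change of 0.62, against 0.0035 over all genes tested. Because the genes were chosen with earlier results of these data known, this contrast is descriptive and is not a test. Together the 10 genes made up 0.180% to 0.182% of all counts in the Ctrl libraries and 0.325% to 0.329% in the l-FA libraries. Egr1, Ier2 and Zfp36 supplied 81.8% to 85.4% of these counts. In bulk RNA, more cells that express a gene and more RNA per cell cannot be told apart.

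**Figure D1:**
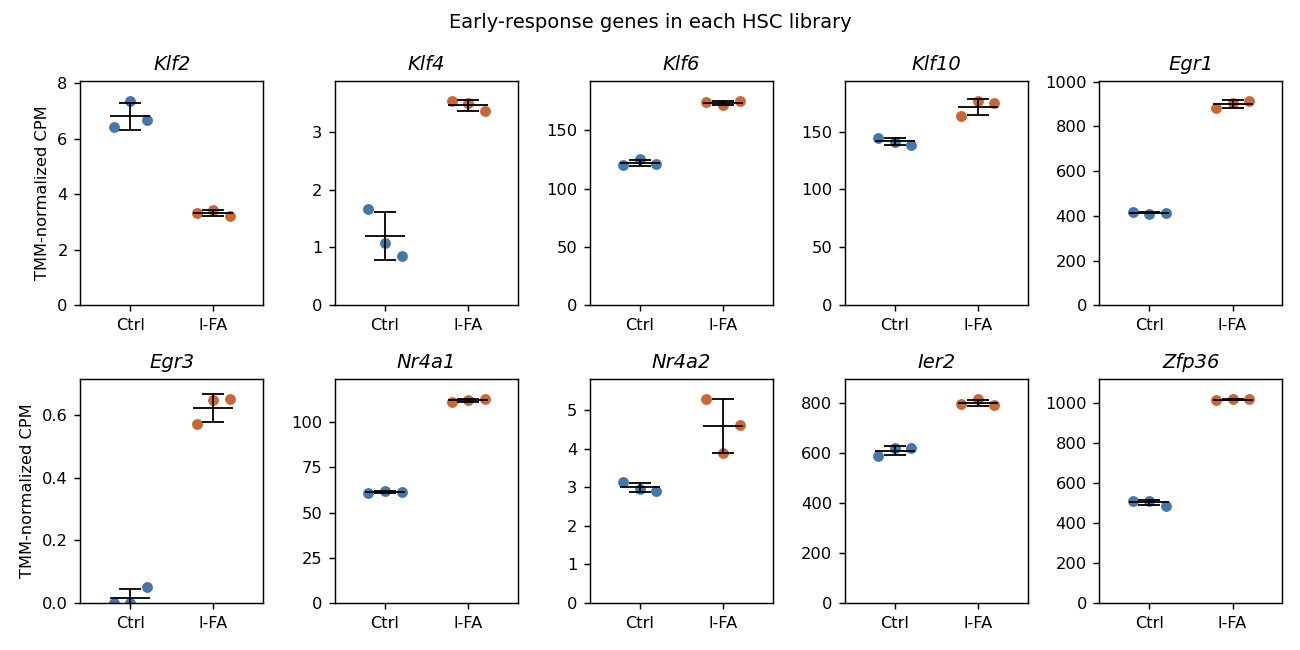
TMM-normalized CPM (counts scaled to library size) of the 10 early-response genes in each library, with Ctrl in blue and l-FA in orange; points are libraries, the long bar is the mean and the whiskers are ± SD (n = 3), and each axis starts at 0. The l-FA points lie above all Ctrl points in 9 panels and below them in the Klf2 panel.

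Sequence features that the choice of genes did not use are shown first. RefSeq promoters on GRCm38.p6 were matched for Klf2, Klf4, Klf6, Nr4a1, Nr4a2 and Zfp36. The 250 bases before the start site were searched on both strands. The promoters of the other early-response genes, Egr1 among them, were not searched, so the motif counts do not cover those genes. The motifs were the CArG box that SRF binds, the CREB site TGACGTCA and its core TGACG, the EGR site GCGNGGGCG, the NR4A site AAAGGTCA and the AP-1 site TGANTCA. The EGR site occurred in 5 of the 6 promoters (Klf2, Klf4, Nr4a1, Nr4a2 and Zfp36), against 4.70% of all 32851 promoters. These 6 promoters hold 64.8% to 80.0% G and C, and 17.5% of the 5465 promoters in that range have the EGR site. The stretches that hold the matches are printed for the only gene that fell and for 3 genes that rose, written 5′ to 3′ on the strand of the gene, with the EGR site, TGACG and the CArG box in capitals. A match on the opposite strand is printed as its reverse complement, such as CGTCA for TGACG.

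Klf2, chr8:72318812-72318881, plus strand: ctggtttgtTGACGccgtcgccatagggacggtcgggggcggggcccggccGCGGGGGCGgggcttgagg
Klf4, chr4:55532651-55532717, minus strand: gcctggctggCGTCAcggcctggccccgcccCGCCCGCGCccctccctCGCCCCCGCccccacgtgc
Zfp36, chr7:28379267-28379343, minus strand: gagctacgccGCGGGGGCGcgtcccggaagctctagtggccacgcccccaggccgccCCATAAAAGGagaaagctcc
Nr4a1, chr15:101266603-101266820, plus strand: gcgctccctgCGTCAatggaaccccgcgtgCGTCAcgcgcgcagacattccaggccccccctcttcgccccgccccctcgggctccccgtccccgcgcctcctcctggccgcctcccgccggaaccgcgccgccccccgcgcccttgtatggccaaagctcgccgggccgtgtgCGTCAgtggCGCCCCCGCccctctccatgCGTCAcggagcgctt

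Of the 6 promoters searched, only that of Zfp36 had a CArG box, 49 to 58 bases before the start site. In this window 1.47% of all promoters and 0.714% of those in the G and C range have one. Whether the Egr1 promoter has one was not tested. The core TGACG occurred in 4 promoters, 4 times in that of Nr4a1 and 4 times in that of Nr4a2, against 17.8% of all promoters and 28.0% of those in the same G and C range with at least 1. The full sites TGACGTCA, AAAGGTCA and TGANTCA occurred in none of the 6 windows and in 1.55%, 1.34% and 6.75% of all promoters (2.69%, 0.366% and 2.09% in the G and C range). The promoter of Klf2, which fell, held an EGR site and a TGACG core, as did those of Klf4, Nr4a1 and Nr4a2, which rose. The promoter of Klf6 held none of these motifs.

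TTP acts on AU-rich elements in the 3′ untranslated region (UTR), so the core TATTTAT was counted in the UTR of each gene's longest coding transcript (GENCODE M21, GRCm38). It occurred in 5 of the 10 genes, against 27.5% of 20962 coding genes, and more than once in Zfp36 and Klf6, against 10.3%. The UTRs of the 10 genes had a median of 1099 bases, and the median over all coding genes was 937. Zfp36 itself carried 3 copies, beginning at bases 575, 590 and 615 of a UTR of 774 bases. The sites are printed 5′ to 3′ in the mRNA sense, with the core in capitals and 8 bases on each side, for the 5 genes that carry them (1 of the 2 sites of Klf6).

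Zfp36 site 1, chr7:28376969-28376991, minus strand: gggcccttTATTTATgacgactt
Zfp36 site 2, chr7:28376954-28376976, minus strand: gacgacttTATTTATtgtattaa
Zfp36 site 3, chr7:28376929-28376951, minus strand: ttttatagTATTTATatatattg
Klf2, chr8:72320991-72321013, plus strand: cagactgcTATTTATtggacctt
Klf6 site 1, chr13:5868493-5868515, plus strand: acgtctctTATTTATgccttgag
Klf10, chr15:38294923-38294945, minus strand: tgtcttttTATTTATaggagttt
Nr4a2, chr2:57107548-57107570, minus strand: tttgtgccTATTTATgaataaat

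The core was thus present in Klf2, which fell, and in genes that rose, and Egr1, Egr3, Ier2, Klf4 and Nr4a1 carried none in these transcripts. The shorter motif ATTTA occurred 7 times in Egr3, 3 times in Nr4a1, 2 times in Egr1, 1 time in Klf4 and not in Ier2. Its share over all coding genes was not counted. Gene structure varied as widely, from 1 exon in Ier2 to 8 in Nr4a1 and Nr4a2, with a median of 3.5, where the median coding gene has 7.

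Among the KLF genes, Klf2 fell and Klf4, Klf6 and Klf10 rose. Klf2 (ENSMUSG00000055148, chromosome 8, 73072877 to 73075500 in the table, as all gene positions on GRCm39), which keeps lymphocytes quiescent and controls their traffic, had 6.41, 7.34 and 6.68 TMM-normalized CPM in the Ctrl libraries and 3.33, 3.44 and 3.20 in the l-FA libraries. All l-FA libraries were below all Ctrl libraries. The means were 6.81 ± 0.481 and 3.33 ± 0.118 CPM (SD, n = 3), from 123 to 137 counts per Ctrl library and 64 to 70 per l-FA library. The log2 fold change was -1.03 (standard error, SE, 0.10, edgeR adjusted p = 0.000346), with a 95% interval from -1.28 to -0.78 that includes a change of 2-fold.

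Klf4 (ENSMUSG00000003032, chromosome 4, 55527143 to 55532466), a reprogramming factor that also drives monocyte differentiation, was the least counted of Klf2, Klf4, Klf6 and Klf10. Its counts were 32, 20 and 17 in Ctrl and 74, 70 and 67 in l-FA. The Ctrl libraries spread far more, at 1.20 ± 0.421 CPM against 3.46 ± 0.0896 in l-FA (SD, n = 3), but did not reach the l-FA values. The log2 fold change was 1.53 (SE 0.24, edgeR adjusted p = 0.00208; 95% interval 0.96 to 2.10) and ranged from 1.32 to 1.84 with single libraries left out.

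Klf6 (ENSMUSG00000000078, chromosome 13, 5911481 to 5920393), a factor of wound and macrophage responses, had 120.1, 125 and 121 CPM in Ctrl and 174, 171 and 175 in l-FA. The gap between the groups was many times the spread within them. Its log2 fold change was 0.51 (SE 0.029, edgeR adjusted p = 4.22e-05), a 1.42-fold rise.

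Klf10 (ENSMUSG00000037465, chromosome 15, 38291707 to 38300950), which TGF-beta induces, had 145, 141 and 138 CPM in Ctrl and 163, 176 and 175 in l-FA. The groups did not overlap, and the 1.21-fold rise was the smallest of the 10 changes (log2 fold change 0.28, SE 0.039, edgeR adjusted p = 0.00131). Of all genes tested, 27.4% had a larger log2 fold change than Klf10, so its rise was not unusual in size.

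The other KLF factors were taken as a list of 13, of which 10 are in the table and all 10 were tested. Of these, 1 was higher and 3 lower, with a median log2 fold change of -0.09. Over all genes tested 25.5% were called higher and 25.0% lower, and the counts of this and the later lists stand beside these shares. Klf12, a repressor, rose from 1.49 ± 0.115 to 3.31 ± 0.299 CPM (SD, n = 3), with a log2 fold change of 1.15 (SE 0.14, edgeR adjusted p = 0.000804). Klf16 fell from 8.92 ± 0.0852 to 3.94 ± 0.271 CPM (log2 fold change -1.17, SE 0.092, edgeR adjusted p = 0.000139). Klf9, a glucocorticoid-induced repressor, fell by 0.74 on the log2 scale (SE 0.076, edgeR adjusted p = 0.000372). The erythroid factor Klf1 did not pass the test (edgeR adjusted p = 0.217). In the table Nr4a1 and Zfp36 each overlap another gene model, which had at most 6 counts in any library.

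Among the EGR genes, Egr1 and Egr3 rose. Egr1 (ENSMUSG00000038418, chromosome 18, 34992876 to 34998037) had 417, 410.2 and 414 CPM in the Ctrl libraries and 882, 906 and 912 in the l-FA libraries. It was counted 7654 to 8253 times per Ctrl library and 18176 to 18513 times per l-FA library, with no overlap. The means were 414 ± 3.58 and 899.8 ± 16.0 CPM (SD, n = 3). The log2 fold change was 1.12 (SE 0.020, edgeR adjusted p = 1.04e-06), with a 95% interval from 1.07 to 1.17 and a range of 1.11 to 1.15 with single libraries left out. Only 6.29% of all genes tested had a larger log2 fold change.

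Egr3 (ENSMUSG00000033730, chromosome 14, 70314652 to 70320063), which restrains lymphocyte activation, was near the detection limit. The Ctrl libraries held 0, 0 and 1 count and the l-FA libraries 12, 13 and 13. With 38 counts in l-FA and 1 in Ctrl, the depth-corrected ratio was 38.0, with an exact 95% counting interval from 6.42 to 1539. The fitted log2 fold change (4.74, edgeR adjusted p = 0.000963) depends on the prior count and is not a measure of its size.

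Egr2, which also restrains lymphocyte activation, had 13, 13 and 17 counts in Ctrl and 2, 1 and 3 in l-FA, a depth-corrected ratio of l-FA to Ctrl of 0.139 (exact 95% counting interval 0.0485 to 0.329). It passed the low-count filter only through its Ctrl counts and so had to be lower, and its test is not read as support. The list of other EGR and NR4A factors and of the NAB proteins, which bind EGR factors and repress through them, had 5 genes, of which 3 were tested. Egr4 and Nr4a3 did not pass the low-count filter. Nab2, itself an EGR target, was higher in all l-FA libraries (log2 fold change 0.55, SE 0.16, edgeR adjusted p = 0.0277), but its call was lost in 3 of 6 repeats, without Ctrl replicate 1 or 2 or l-FA replicate 1 (adjusted p from 0.0550 to 0.0846 in edgeR). Nab1 had a log2 fold change of -0.03 (SE 0.071, edgeR adjusted p = 0.73).

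**Figure D2:**
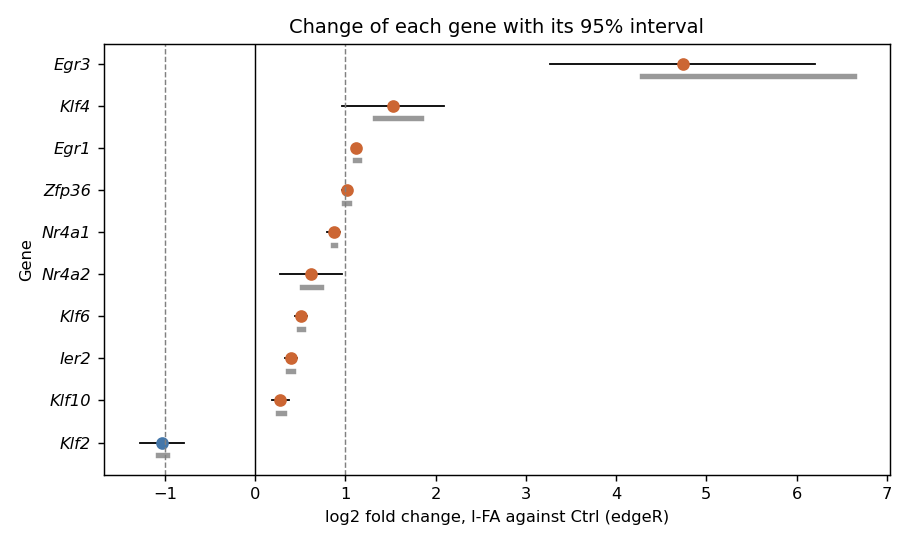
Log2 fold change of each early-response gene in l-FA against Ctrl (edgeR); the dot is the estimate, the black line its 95% interval and the grey bar the range with each library left out in turn, with dashed lines at a 2-fold change. The black lines of Klf2, Klf4 and Zfp36 cross a 2-fold line, that of Egr1 lies above it, and the wide line of Egr3 rests on 1 Ctrl count.

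The NR4A genes rose by unequal amounts and from unequal levels. Nr4a1 (NUR77; ENSMUSG00000023034, chromosome 15, 101152150 to 101172676) had 61.0, 61.8 and 61.4 CPM in Ctrl and 111, 112 and 113 in l-FA. The SD within a group was 0.387 CPM in Ctrl and 0.741 in l-FA, far below the gap between the groups. The log2 fold change was 0.87 (SE 0.029, edgeR adjusted p = 6.89e-06; 95% interval 0.80 to 0.94).

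Nr4a2 (NURR1; ENSMUSG00000026826, chromosome 2, 56996842 to 57014015) had 3.13, 2.95 and 2.91 CPM in Ctrl and 5.29, 3.89 and 4.61 in l-FA. The l-FA libraries spread widely without reaching down to Ctrl. The log2 fold change was 0.62 (SE 0.14, edgeR adjusted p = 0.0115; 95% interval 0.27 to 0.96), the weakest call of the 10, with adjusted p up to 0.0408 when single libraries were left out.

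Ier2 and Zfp36, which encode no KLF, EGR or NR4A factor, both rose. Ier2 (ENSMUSG00000053560, chromosome 8, 85387960 to 85389483), an early-response nuclear protein, had 589, 619 and 622 CPM in Ctrl and 796, 816 and 794 in l-FA. The lowest l-FA library stood well above the highest Ctrl library. The log2 fold change was 0.39 (SE 0.027, edgeR adjusted p = 8.3e-05), a 1.31-fold rise.

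Zfp36 (ENSMUSG00000044786, chromosome 7, 28076209 to 28079678), the gene of TTP whose CArG box and AU-rich sites are printed above, had 511, 511 and 486 CPM in Ctrl and 1014, 1021 and 1021 in l-FA. The l-FA libraries were almost equal. The means were 503 ± 14.2 and 1018 ± 3.99 CPM (SD, n = 3), and the log2 fold change was 1.02 (SE 0.024, edgeR adjusted p = 2.12e-06). Its 95% interval, from 0.96 to 1.08, includes a 2-fold change.

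With the 2-fold limit of the study's methods added to the adjusted p, Egr1, Egr3, Klf4 and Zfp36 were called higher and Klf2 lower, against 6.68% and 5.10% of all genes tested. Leaving out Egr3, which had to differ, these were 3 higher and 1 lower of 9 genes. Without Ctrl replicate 2 or l-FA replicate 3, Klf2 came inside the 2-fold limit, and without Ctrl replicate 3, Zfp36 did. Leaving out any 1 library left all 10 genes at an adjusted p under 0.05.

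**Figure D3:**
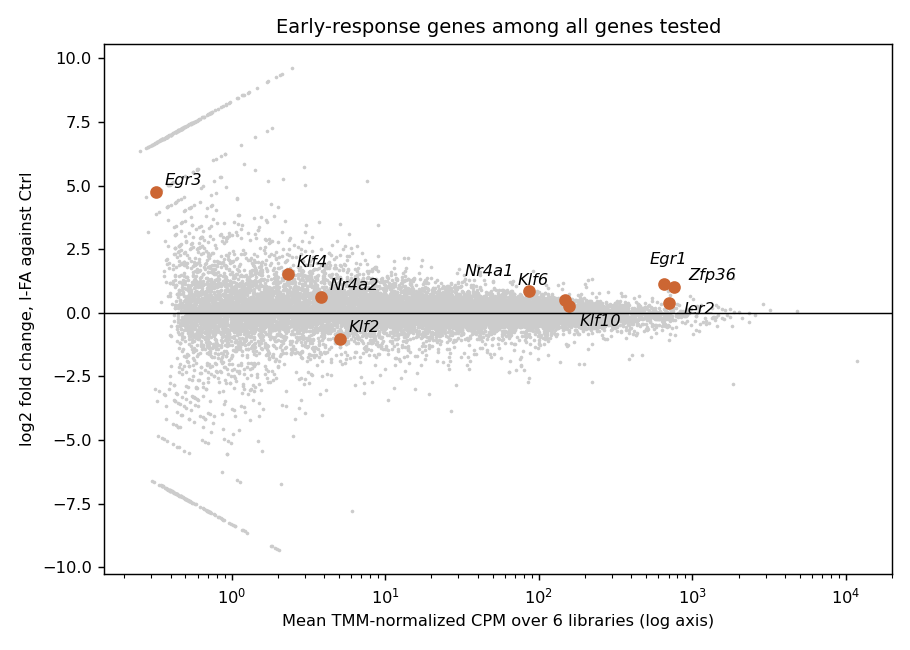
Log2 fold change in l-FA against Ctrl over the mean TMM-normalized CPM of 6 libraries (log axis) for the 16520 genes tested (grey), with the 10 early-response genes in orange. Egr1, Zfp36 and Ier2 sit among the most abundant genes, Egr3 in the low-count fan at the left, and of the 10 only Klf2 lies below 0.

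Levels of different genes were compared per length, as TMM-normalized CPM per kilobase of the longest coding transcript. On this scale Ier2 was highest in Ctrl at 401 ± 12.0, followed by Zfp36 (180.3 ± 5.10), Egr1 (92.3 ± 0.798), Klf10 (46.5 ± 1.06), Klf6 (28.9 ± 0.640) and Nr4a1 (24.1 ± 0.152; all SD, n = 3). Klf2 (3.69), Nr4a2 (0.839), Klf4 (0.395) and Egr3 (0.00425) were far lower, and no neighbours in this order overlapped. In l-FA the order was the same except that Nr4a1 (43.9 ± 0.290) passed Klf6 (41.0 ± 0.459), and Nr4a2 and Klf4 overlapped. The order turned with the length chosen. On the FPKM values deposited by the authors, Klf6 (32.7 ± 0.431) was above Nr4a1 (30.4 ± 0.105) and Egr1 (206 ± 2.92) above Zfp36 (199 ± 0.0482) in l-FA, and Klf6 and Klf10 overlapped in Ctrl. For Zfp36 these values imply a gene length of 5255 bases, the sum of its 2 annotated transcripts, where the longest has 2790 bases. Its per-length level on the authors' scale is therefore lower, whereas a fold change between groups does not depend on the length. Egr1, Ier2 and Klf2 have implied lengths of 4484, 1524 and 1847 bases, within 2 bases of their longest transcript.

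FOS and JUN factors, which share the upstream signals of these genes, were described by a list of 8, of which 7 were tested and 4 were higher and 1 lower. Fos rose from 499.5 ± 13.5 to 894 ± 5.80 CPM (SD, n = 3; log2 fold change 0.84, SE 0.024, edgeR adjusted p = 3.95e-06). Jund, the 1 called lower, fell from 130.5 ± 2.59 to 43.7 ± 1.29 CPM (log2 fold change -1.58, SE 0.037, edgeR adjusted p = 2.12e-06). Jun did not pass (edgeR adjusted p = 0.176), with 2582 counts in Ctrl replicate 1 and 27356 and 29257 in the other Ctrl libraries, against 52224 to 55570 in l-FA. Without Ctrl replicate 1 its log2 fold change was 0.85 (edgeR adjusted p = 4.18e-05). All 10 early-response genes kept their calls without Ctrl replicate 1.

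Relatives of Ier2 and Zfp36 were a list of 6, of which 4 were tested. Ier3, another early-response gene, rose from 57.2 ± 1.16 to 105 ± 0.573 CPM (SD, n = 3; log2 fold change 0.88, SE 0.032, edgeR adjusted p = 1.06e-05). The TTP paralogs moved apart, as Zfp36l1 rose by 0.57 on the log2 scale (SE 0.085, edgeR adjusted p = 0.00177) and Zfp36l2 fell by 0.18 (SE 0.022, edgeR adjusted p = 0.000651).

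Of 23 other immediate early genes, all tested, 11 were higher, 3 lower and 9 not called, with a median log2 fold change of 0.25. Btg2, an antiproliferative factor, rose from 78.0 ± 0.933 to 152 ± 2.09 CPM (SD, n = 3; log2 fold change 0.96, SE 0.029, edgeR adjusted p = 4.72e-06). Id3, an inhibitor of basic helix-loop-helix factors, rose by 1.14 on the log2 scale (edgeR adjusted p = 0.000358), from 2.72 ± 0.195 CPM in Ctrl. Dusp2, a phosphatase that switches off MAP kinases, fell from 47.4 ± 3.12 to 24.1 ± 1.14 CPM (log2 fold change -0.98, edgeR adjusted p = 8.81e-05). Ccn1 had 23, 15 and 15 counts in Ctrl and 8, 8 and 7 in l-FA, and was called lower after passing the low-count filter only through Ctrl.

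Regulators upstream of these genes were described by further lists, beside 25.5% of all genes tested called higher and 25.0% lower. Of 12 SRF, ternary complex and CREB genes 5 were higher and 0 lower (edgeR; also 0 at an unadjusted p under 0.05 and 0 by DESeq2), with a median log2 fold change of 0.12. Creb1 (0.68, SE 0.22, edgeR adjusted p = 0.0376) and Crem (0.46, SE 0.15, edgeR adjusted p = 0.0402) were called. So were Elk4 (0.34, edgeR adjusted p = 0.00194), Elk3 (0.13, edgeR adjusted p = 0.0134) and Crtc2 (0.12, edgeR adjusted p = 0.0244). Srf itself was not called (-0.40, SE 0.19, edgeR adjusted p = 0.126). Creb1 lost its call without Ctrl replicate 1 or l-FA replicate 1 or 3 (edgeR adjusted p 0.0731 to 0.0935), with the replicate block (0.0736) and with no low-count filter (0.0636). Crem lost it without Ctrl replicate 2 or 3 or l-FA replicate 1 or 2 (0.0969 to 0.119), with no low-count filter (0.0594) and with limma on log2(FPKM + 1) (0.0566). Atf1 did not pass (log2 fold change -0.49, edgeR adjusted p = 0.296), with 450 counts in l-FA replicate 2 and 1276 and 1278 in the other l-FA libraries. Of 7 genes tested among MEK5, ERK5 and MEF2 regulators, the route to Klf2, 2 were higher and 1 lower. Map3k3 rose by 0.96 on the log2 scale (SE 0.15, edgeR adjusted p = 0.00205), Mef2a by 0.32 (edgeR adjusted p = 0.00099), and Mef2d fell by 0.42 (edgeR adjusted p = 0.000439).

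In the RAS and ERK cascade, the kinase route to SRF, 0 of 14 genes were higher, 7 were lower and 7 were not called (edgeR). Araf was the 1 gene higher at an unadjusted p under 0.05, and DESeq2 called it higher. Rps6ka2, a ribosomal S6 kinase, fell from 27.8 ± 2.64 to 6.65 ± 0.120 CPM (SD, n = 3; log2 fold change -2.06, SE 0.090, edgeR adjusted p = 1.83e-05).

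Genes known to be activated by KLF2 were set beside its fall. Of the 5 listed, 4 were tested, 3 were higher and 1 lower. S1pr1, the receptor through which lymphocytes leave tissue, rose from 28.1 ± 1.18 to 43.8 ± 2.60 CPM (SD, n = 3; log2 fold change 0.64, edgeR adjusted p = 0.000322), and Itgb7, an integrin, from 86.5 to 89.0 CPM in the Ctrl libraries to 129.7 to 130.8 in the l-FA libraries (log2 fold change 0.57, edgeR adjusted p = 2.72e-05). Thbd, thrombomodulin, fell by 0.31 on the log2 scale (SE 0.090, edgeR adjusted p = 0.0275) and lost its call when any library other than Ctrl replicate 3 was left out (edgeR adjusted p 0.0513 to 0.0844), with the replicate block (0.0536) and with limma on log2(FPKM + 1) (0.0616). The 3 genes called higher moved opposite to Klf2.

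Messages known to be destroyed by TTP were set beside the rise of Zfp36. Of the 10 listed, 9 are in the table and 5 were tested, of which 4 were higher and 1 lower. Tnf rose from 2.46 ± 0.0825 to 5.94 ± 0.819 CPM (SD, n = 3; log2 fold change 1.27, SE 0.14, edgeR adjusted p = 0.000476). Ptgs2, which makes prostaglandins, and the chemokine gene Cxcl2 rose 2.25-fold (adjusted p = 0.00203) and 2.01-fold (adjusted p = 0.00639) in the same edgeR fit. Il6, the 1 gene called lower, had 18, 23 and 13 counts in Ctrl and 7, 9 and 5 in l-FA. It passed the low-count filter only through Ctrl and so had to be lower. Tnf, Ptgs2, Cxcl2 and Il6 had at most 136 counts in a library. Ccl3, the best counted of the 5 tested, also rose (mean 78.0 CPM over the 6 libraries, log2 fold change 0.63, SE 0.061, edgeR adjusted p = 0.00031).

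**Figure D4:**
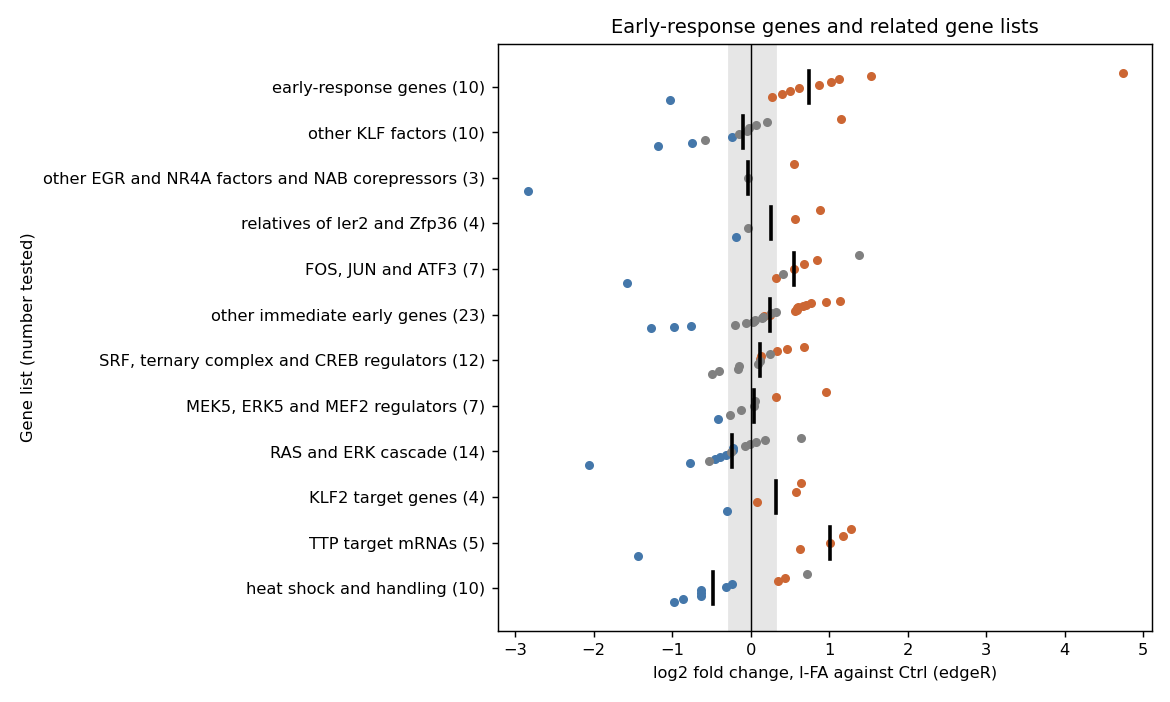
Log2 fold change in l-FA against Ctrl (edgeR) of each gene tested in the 10 early-response genes, 10 related lists and a heat shock list; orange and blue points are called higher and lower at an adjusted p under 0.05, grey points are not called, the black bar is the list's median and the grey band the middle 50% of all genes tested. The early-response genes have a median of 0.74 with Egr3 included, the RAS and ERK cascade -0.24 and the heat shock list -0.47.

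Other measures moved with the groups as well. The HSC markers were all detected, with Kit at 1067 ± 18.8 in Ctrl and 1157 ± 9.92 CPM in l-FA (SD, n = 3), and 7 of 10 were higher and 1 lower. Of 12 neutrophil and monocyte markers 10 were lower and 2 higher, and their summed level was 23305 to 24156 CPM in Ctrl and 6155 to 6471 in l-FA, led by Mpo and Elane. The summed level of erythroid markers was 78.3 to 85.5 CPM in Ctrl and 94.3 to 96.9 in l-FA, that of megakaryocyte and platelet markers 213 to 221 and 302 to 310.3, and that of macrophage markers 45.2 to 46.6 and 41.2 to 43.0. Of 8 erythroid markers 3 were higher and 1 lower, and of 7 megakaryocyte and platelet markers 5 were higher. Of 6 macrophage markers 1 was higher (C1qb, 2.32-fold) and 3 were not called. The 2 that were lower were Adgre1 (log2 fold change -3.08) and Mrc1 (-0.944, edgeR adjusted p = 0.0202). The macrophage sum was mostly Cd68, which was not called. T and NK cell markers summed to 548.5 to 570.1 CPM in Ctrl and 310.4 to 320.3 in l-FA, nearly all of it Nkg7 (555.6 ± 12.2 and 306.9 ± 4.80 CPM; SD, n = 3). Of the 4 tested, 2 were higher, Cd4 (3.39-fold) and Gzmb, and 2 lower, with a median log2 fold change of 0.45. Gzmb and the platelet gene Gp6, also called higher, passed the low-count filter only through l-FA. Camp, a neutrophil marker, and Adgre1, both called lower, passed it only through Ctrl. These genes had to differ, so their calls, counted above, are not read as results. The means of Gzmb, Gp6, Camp and Adgre1 over the 6 libraries were 0.661, 0.543, 0.875 and 2.27 CPM. B cell markers summed to 55.6 to 55.9 and 63.2 to 66.0 CPM, and endothelial and stromal markers to 9.69 to 10.1 and 9.27 to 12.0. No listed marker in the table was at 0 in all 6 libraries. Of 10 heat shock genes, which respond to the handling of cells, 2 were higher and 7 lower, and their summed level was 2716 to 2780.2 CPM in Ctrl and 1952 to 2132 in l-FA. The part of these cells and of handling in the early-response changes was not tested. Total counts were 19287735 to 20380610 in Ctrl and 19505689 to 20376031 in l-FA.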

How the data were processed

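RNA of sorted HSCs was amplified as SMART-Seq HT cDNA and sequenced from 3 Ctrl and 3 l-FA libraries. The submitters' processing notes name HISAT2, SAMtools 1.3.1, StringTie, edgeR and GRCm39, without giving their roles. The authors deposited raw read counts and FPKM values per gene. No molecular identifiers were used, so counting intervals cover counting error only. Counts were tested with edgeR 4.0.16 (R 4.3.3; TMM, filterByExpr, quasi-likelihood test of l-FA against Ctrl), with Benjamini-Hochberg adjustment over 16520 of 27198 genes and a threshold of 0.05. The step was tested on simulated data of 16520 genes, where 175 of 200 changed genes were called, with 11 false calls. The simulation gave all genes the same dispersion and each changed gene a 2-fold change. Its recovery therefore does not carry over to smaller changes or to genes that vary more between libraries. The deposited FPKM values served limma 3.58.1 on log2(FPKM + 1). DESeq2 1.42.0, other scalings and filters, a replicate block and leaving out each library were the other alternatives. Total counts were 19287735 to 20380610 per library, and depth limits precision mainly for Egr3, Klf4, Klf2 and Nr4a2. Same-numbered libraries did not deviate together (correlations 0.0187, -0.0132 and -0.0500), so they were not paired. The early-response genes and lists were chosen with earlier results of these data known. From each list the text names genes from among the 3 with the largest absolute log2 fold change at a mean of at least 1 CPM and all genes called with a change above 2-fold. Of marker lists, named genes are from the 2 most abundant of each list. Araf, Klf1, Egr4, Nr4a3, Ccl3, Elk3, Elk4, Crtc2, Srf, Adgre1, Mrc1, Gp6, Gzmb and Camp were named outside these rules, after their values were seen.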

Additional observations from a re-analysis of the deposited data

How the results depend on the processing

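All 129 tests of the 10 early-response genes under the 13 alternatives kept the direction and the call of the values reported, and Egr3 had no value under the filter of 10 counts. The number past 2-fold higher was 4 as reported, 3 under a filter of 10 counts in each library and without Ctrl replicate 3, and 2 with limma on log2(FPKM + 1), where the pseudocount shrinks low genes. The number past 2-fold lower was 1 as reported, 0 with limma and 0 to 1 with a library left out. The median log2 fold change was 0.74 as reported, 0.62 under the filter of 10 counts, 0.49 with limma and 0.70 to 0.81 with a library left out. With the replicate block, 9 genes were higher and 1 lower, 4 and 1 of them past 2-fold, with a median of 0.74, and the related lists had 29 genes higher and 18 lower against 33 and 19 without it, so it changed no call of an early-response gene. Over all alternatives the related lists had 28 to 39 genes higher and 16 to 20 lower. Over all genes, 1103 were past 2-fold higher and 843 lower as reported, 1789 and 1546 with no low-count filter, 516 and 414 under the filter of 10 counts, and 125 and 151 with limma. Nab1, not called, turned sign with limma (0.033) and ranged from -0.068 to 0.015 with a library left out. Cd79a, a B cell marker that was not called, turned sign with no low-count filter (-0.00083) and ranged from -0.20 to 0.27 with a library left out. The cause of these reversals was not tested.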

Other observations

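Libraries of the same group agreed closely for some early-response genes. A chi-square of the counts over the 3 libraries of a group has a median of 1.39 under counting error alone. Over all genes tested the median was 3.04 in Ctrl and 2.84 in l-FA, and over the 10 early-response genes it was 2.06 and 0.696. For Nr4a1 it was 0.0998 in Ctrl and 0.0542 in l-FA. Zfp36 in l-FA had the lowest value, at 0.00246. Ier2 in Ctrl had the highest value of the 10, at 23.9. Whether libraries of a group come from separate mice is not given in the sources used here.

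The gene lengths implied by the deposited counts and FPKM values were set against GENCODE M21. Of 14831 genes with several transcripts, 97.9% had an implied length above that of their longest transcript, and 9.90% matched the sum of their transcripts within 1%. FPKM values of such genes are lower than values per longest transcript.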
